A study of Mus musculus with 8 samples.

Results

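The interferon response and MHC class I genes of mouse ES cells are described here across 4 self-renewal media. They are 39 genes chosen by symbol for their known roles, with earlier results of these data known. The expression tables hold 38991 genes, and each of the 39 symbols was found. RNA was sequenced from 8 cultures of Rex1GFPd2 cells, a line from strain 129 in which the Rex1 gene drives a short-lived GFP, so that the results concern a single line. All cells had grown for 6 passages in 2i and then for 5 passages in the test medium, to passage 11, on gelatin in serum-free N2B27. The medium 2i+LIF held the cytokine LIF, the GSK3 inhibitor CHIR99021 (CH, 3 µM) and the MEK inhibitor PD0325901 (PD, 1 µM). The 2i medium lacked LIF, LIF+PD lacked CH and CH+LIF lacked PD. Each medium had 2 cultures, and nothing states that these came from separate derivations, so the tests measure the spread between cultures, which may be technical.

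Type I interferons bind a receptor of 2 chains, Ifnar1 and Ifnar2, and signal through Jak1 and Tyk2 to a complex that holds Stat2 and Irf9. That complex binds the interferon-stimulated response element (ISRE) in the promoters of antiviral genes. Interferon gamma acts through a receptor of its own and raises the class I antigen presentation genes, which encode the heavy chains, the light chain beta-2-microglobulin, the peptide transporter and the immunoproteasome. Pluripotent stem cells are known for a weak response to interferon and for little class I on their surface.

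Levels are FPKM, fragments scaled by transcript length and by mapped reads so that genes and cultures can be set side by side. Both comparisons are approximate. Summed FPKM differed between cultures, and the FPKM of 6 members lay above its own upper bound in some or all cultures. Differences are on the log2(FPKM + 1) scale, which understates changes of weak genes, and each is given with its standard error. A gene was tested if 2 or more cultures reached 1 FPKM for it, which held for 12927 genes, and it was called when its Benjamini-Hochberg adjusted p from limma over all of them was below 0.05. Among the 39 members 22 were tested and 17 were not. The 3 comparisons with 2i+LIF share the 2i+LIF cultures, and the comparisons among the other media share cultures with them.

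The cultures carried the marks of ES cells in their media. Summed FPKM of 6 pluripotency genes lay between 2898 and 3706. Most of it was Pou5f1, at 1625 to 2269 FPKM. Single genes of the list differed between media, such as Nanog at 305 and 283 FPKM in CH+LIF and 409 to 549 elsewhere. Socs3, a LIF target, was at 2.59 and 1.29 FPKM in 2i and at 63.9 to 119 FPKM elsewhere, Axin2, a target of the pathway that CH activates, was at 1.85 and 2.47 FPKM in LIF+PD, and Dusp6 and Spry4, which MEK signalling induces, were highest in CH+LIF. Of 8 fibroblast markers Col3a1, Dcn and Lum were at 0 in every culture, and the sum of the list was 1.23 to 4.99 FPKM in the other 3 media and 4.60 and 17.7 in CH+LIF, where the higher sum came from 14.1 FPKM of Postn in culture 2. Of 8 leukocyte markers Ptprc was at most 0.0226 FPKM and Lyz2 and Emr1 were at 0, and Cd68, a lysosomal protein gene, gave 7.05 to 18.99 FPKM of a list sum of 8.09 to 19.8. Relative depth, read from the steps between weak values, was 0.499 for culture 1 of 2i and 0.903 to 1.18 for the others, so the weak members are least precise in that culture. The part of other cells in the members' values was not tested, and in such bulk samples fewer cells of a type and less RNA per cell cannot be told apart.

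The members ranged from genes listed at 0 in all media to Ifitm2, which reached 1169 FPKM. By role, 4 of 6 transcription factors, 1 of 3 RNA sensors, 1 of 3 genes of the ISG15 system, 7 of 15 antiviral effectors, all 4 class I chain genes, 2 of 3 transport and loading genes and 3 of 5 immunoproteasome and PA28 genes were tested. Ifit3 and Psmb8 were listed at 0 in all 8 cultures, 16 members stayed below 1 FPKM everywhere, 19 were at or above 1 FPKM in every culture, and 5 passed 100 FPKM in at least 1 culture. The span from the members at 0 to Ifitm2 is visible in the plot of all members by culture.

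**Figure D1:**
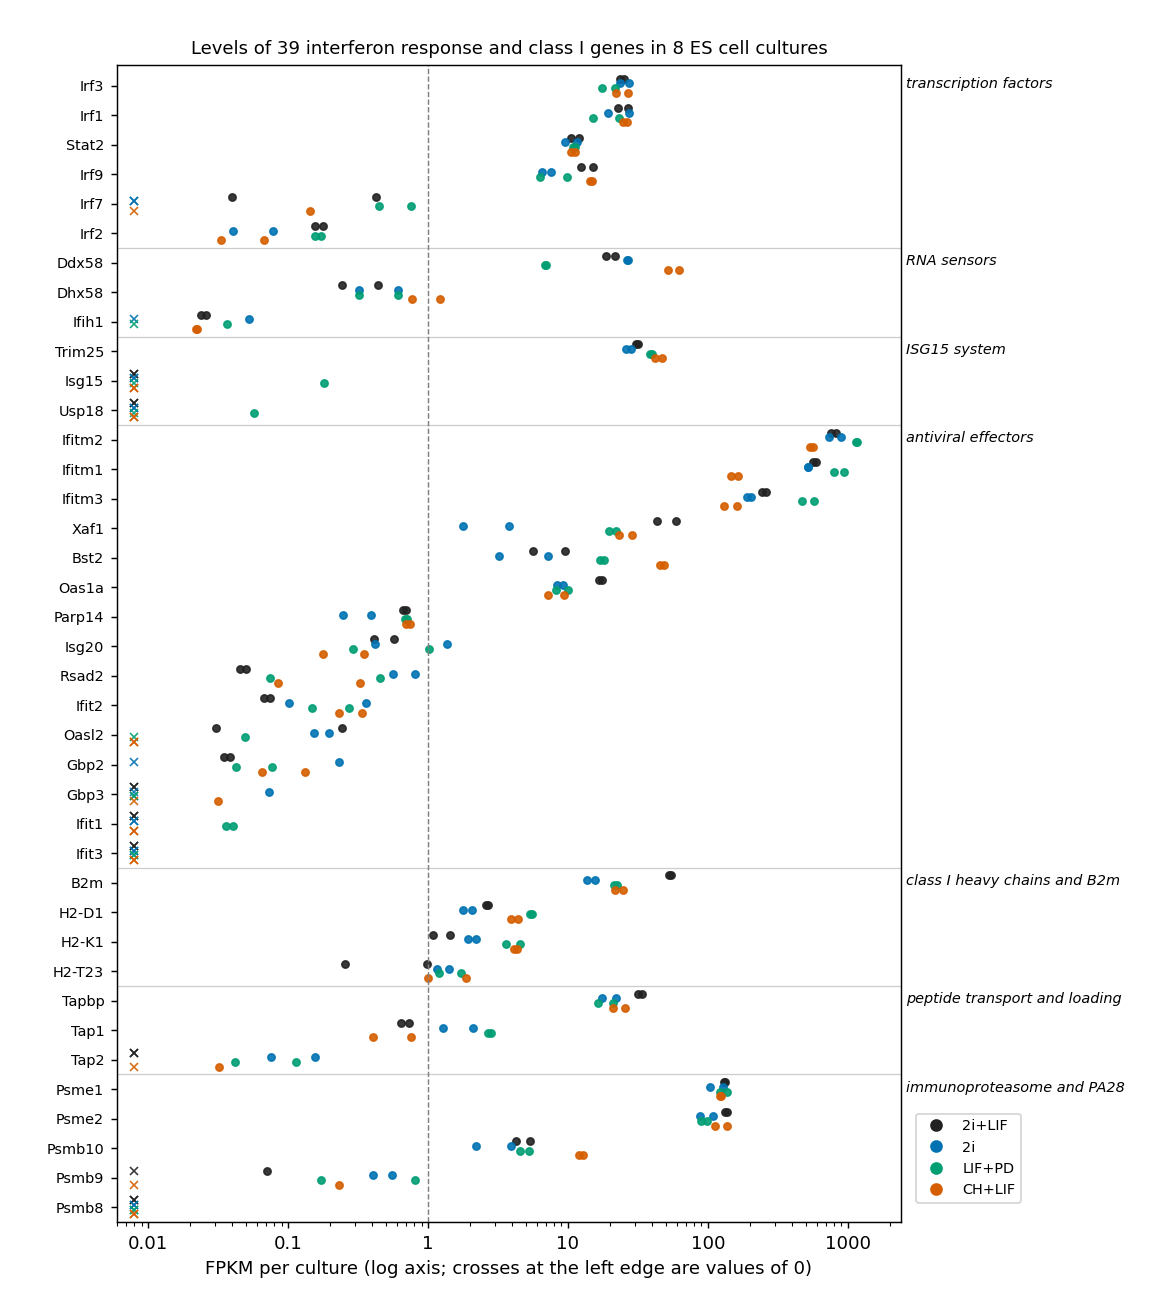
FPKM of each of the 39 members in each of the 8 cultures, on a log axis, grouped by role, with colours for the media and crosses for values of 0. The dashed line marks 1 FPKM, and 16 members lie to its left in all cultures while Ifitm2 reaches 1169 FPKM in LIF+PD.

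The promoters of 3 Ifitm genes and of Bst2 are shown first, because these neighbours or fellow effectors moved in opposite directions when PD was left out. Ifitm1, Ifitm2 and Ifitm3 encode membrane proteins that block virus entry, and they lie within chr7:140954839-141010770 (mm10), Ifitm1 on the plus strand and the other 2 on the minus strand. Bst2 encodes tetherin, which holds budding virus at the cell surface. Each run below holds 250 bases before and 50 after a transcription start in RefSeq (GRCm38.p6), 5′ to 3′ on the strand of the gene. Capitals mark matches, on either strand, to the ISRE core GAAANNGAAA or to the gamma-activated site TTCNNNGAA, called GAS. The windows are chr7:140967826-140968125 for Ifitm1, chr7:140955912-140956211 for Ifitm2, chr7:141010695-141010994 for Ifitm3 and chr8:71537423-71537722 for Bst2.
Ifitm1: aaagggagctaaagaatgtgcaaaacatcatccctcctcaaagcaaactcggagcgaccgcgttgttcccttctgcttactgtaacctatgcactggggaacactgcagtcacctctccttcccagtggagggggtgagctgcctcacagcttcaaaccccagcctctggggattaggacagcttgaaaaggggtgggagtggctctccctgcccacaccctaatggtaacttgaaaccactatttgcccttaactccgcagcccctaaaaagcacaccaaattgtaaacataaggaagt
Ifitm2: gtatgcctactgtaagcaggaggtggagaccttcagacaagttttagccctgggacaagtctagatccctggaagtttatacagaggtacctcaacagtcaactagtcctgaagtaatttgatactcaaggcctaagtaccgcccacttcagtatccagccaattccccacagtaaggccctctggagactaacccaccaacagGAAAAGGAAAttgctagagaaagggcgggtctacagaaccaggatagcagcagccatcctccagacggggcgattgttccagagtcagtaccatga
Ifitm3: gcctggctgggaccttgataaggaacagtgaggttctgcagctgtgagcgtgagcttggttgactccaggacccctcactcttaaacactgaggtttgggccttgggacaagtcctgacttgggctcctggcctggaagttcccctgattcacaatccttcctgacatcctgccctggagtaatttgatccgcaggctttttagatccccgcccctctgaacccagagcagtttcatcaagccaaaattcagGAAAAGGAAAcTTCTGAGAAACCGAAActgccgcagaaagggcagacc
Bst2: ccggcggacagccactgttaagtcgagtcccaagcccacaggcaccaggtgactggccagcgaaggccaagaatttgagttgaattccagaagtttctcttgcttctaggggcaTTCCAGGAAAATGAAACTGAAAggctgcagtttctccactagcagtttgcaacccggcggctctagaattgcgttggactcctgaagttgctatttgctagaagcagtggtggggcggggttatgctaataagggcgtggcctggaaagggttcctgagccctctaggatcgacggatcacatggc

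The Ifitm1 window held no match, Ifitm2 held 1 ISRE core, which began 46 bases before the start, and Ifitm3 held 2 ISRE cores after the start with a GAS match between them that overlapped the second core. In Bst2 a GAS match and 2 overlapping ISRE cores formed 1 run from 136 bases before the start. The start used for Ifitm1 lies inside the longer gene span of the expression tables. These are matches of letters and say nothing of binding.

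RefSeq promoters of this kind were at hand for 35 members, those of Tap2, Usp18, Parp14 and Dhx58 not being among them. At least 1 ISRE core stood in a promoter of 17 of the 35 (48.6%), against 3.99% of 27025 genes and 3.44% of 32851 promoters. At least 1 GAS match stood in 8 of the 35 (22.9%), against 9.55% of genes and 8.30% of promoters. The ISRE core was found for 6 of the 16 members called in a comparison with 2i+LIF, for 3 of the 6 tested and not called, and for 8 of the 13 not tested. The untested genes with matches included Isg15 with 3 overlapping cores, Ifit1 and Ifit3 with 2 each, and Rsad2 and Gbp2 with 1 each, and the shares carry no test because many members are known targets of these sites.

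In the comparison of 2i with 2i+LIF, which asks what LIF adds, 5 of the 22 tested members were lower and 0 were higher by limma (3 were higher at an unadjusted p below 0.05, and the alternative fits called at most 1). Among all genes tested, 8.86% were lower and 9.77% were higher. In LIF+PD, which lacked CH, 8 members were higher and 7 were lower than in 2i+LIF, against 14.8% and 10.4% of all genes. In CH+LIF, which lacked PD, 6 were higher and 6 were lower, against 12.2% and 13.3%. The median absolute change of the 22 was 0.41, 0.68 and 0.51 in these 3 comparisons, beside 0.24, 0.27 and 0.28 over all genes, and the signed medians of the members were -0.19, 0.0038 and -0.07. The share of members lower in 2i was above the background, but the share called there in either direction, 22.7%, was near the 18.6% of all genes. The shares in LIF+PD and CH+LIF were above the background in both directions. Of these calls, 2 of 5 in 2i, 6 of 15 in LIF+PD and 7 of 12 in CH+LIF held in every alternative fit. The members were chosen with earlier results of these data known, so these shares are not an independent test. Passing the filter in only some media favours a difference, which among the 22 concerns Tap1, Isg20 and H2-T23. Of these Tap1 alone was called, and without it 7 members were higher in LIF+PD than in 2i+LIF.

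**Figure D2:**
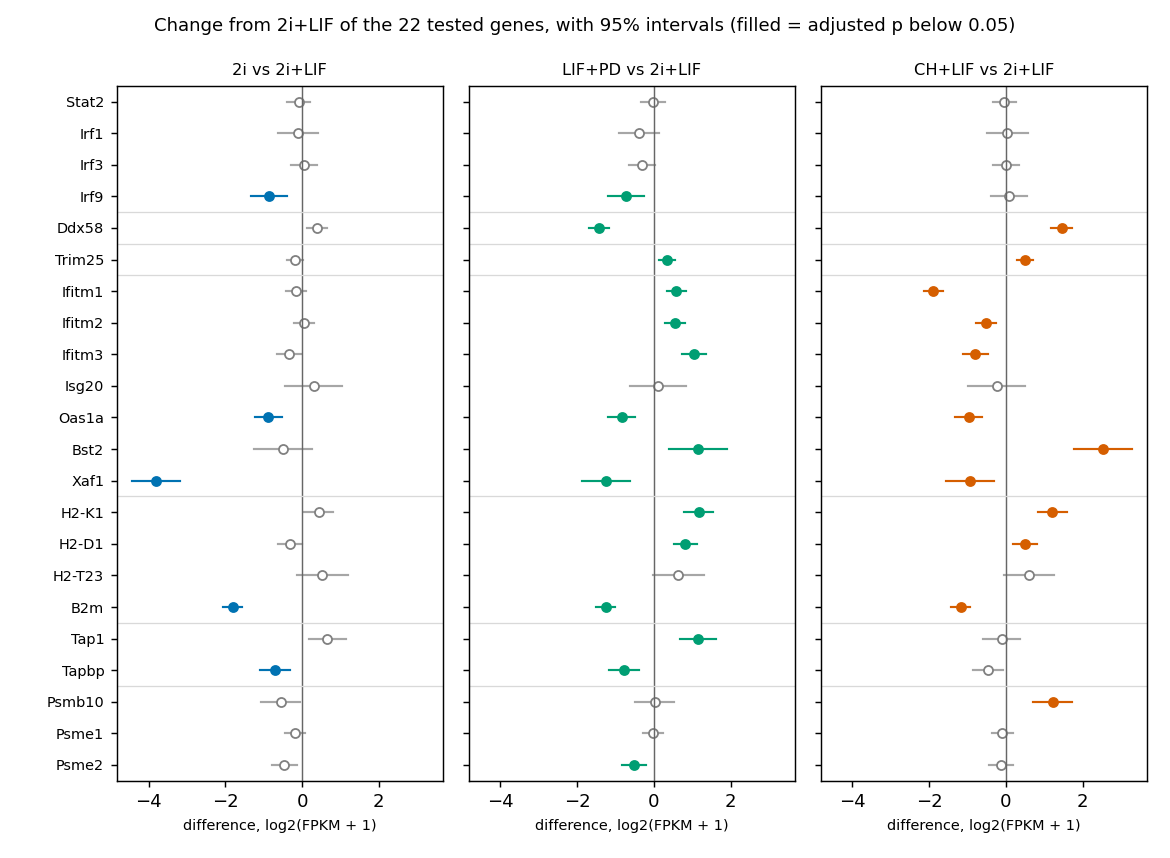
Difference from 2i+LIF on the log2(FPKM + 1) scale for each of the 22 tested members, with 95% confidence intervals from limma, in 2i, LIF+PD and CH+LIF. Filled points have an adjusted p below 0.05: 5 in 2i, all lower, 15 in LIF+PD and 12 in CH+LIF, with both directions in the last 2.

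Among the transcription factors, Irf9 alone was called, and Stat2, Irf1 and Irf3 were not. Irf9, the DNA-binding subunit of the complex that holds Stat2, was at 15.2 and 12.3 FPKM in 2i+LIF, 6.55 and 7.58 in 2i, 6.29 and 9.86 in LIF+PD, and 14.4 and 14.8 in CH+LIF. The cultures without LIF and those without CH were lower and did not overlap those of 2i+LIF or CH+LIF. The difference from 2i+LIF was -0.87 ± 0.20 in 2i (adjusted p = 0.0252) and -0.73 ± 0.20 in LIF+PD (adjusted p = 0.0371), and in CH+LIF it was 0.08 ± 0.20 (adjusted p = 0.79). The first call was lost without either 2i+LIF or either 2i culture, with adjusted p up to 0.130, and the second in 8 of 18 alternatives, with adjusted p up to 0.176. The annotated span of Irf9 overlaps the end of Rnf31, which reached 28.1 FPKM, and the part of shared reads was not tested.

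Stat2, another subunit of the same complex, was at 10.54 and 12.1 FPKM in 2i+LIF, 9.52 and 11.7 in 2i, 10.97 and 11.2 in LIF+PD, and 10.6 and 11.3 in CH+LIF. All 4 media overlapped, and the largest difference from 2i+LIF was -0.09, with a 95% interval of -0.39 to 0.21. Irf1, a factor induced by interferon gamma, ranged from 15.1 to 27.5 FPKM, and Irf3, which switches on interferon genes after virus sensing, from 17.5 to 27.3, and neither was called in any of the 6 comparisons. The span of Irf3 overlaps Bcl2l12, which reached 25.95 FPKM. Irf7, the amplifier of the type I response, was at most 0.760 FPKM and Irf2 at most 0.178 FPKM, and both stayed untested.

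Among the RNA sensors, Ddx58, which encodes RIG-I, a detector of viral RNA ends, gave the widest separation of media. It was at 21.6 and 18.9 FPKM in 2i+LIF, 26.5 and 27.1 in 2i, 6.82 and 6.94 in LIF+PD, and 61.9 and 52.4 in CH+LIF. The 4 media did not overlap, and the order ran from LIF+PD through 2i+LIF and 2i to CH+LIF. Ddx58 was lower in LIF+PD than in 2i+LIF by -1.43 ± 0.11 (adjusted p = 0.000333) and higher in CH+LIF by 1.45 ± 0.11 (adjusted p = 0.000576). Between CH+LIF and LIF+PD the mean FPKM differed 8.30-fold, or 2.88 ± 0.11 (adjusted p = 3.41e-05). These 3 calls held in all 18 alternatives. The step from 2i+LIF to 2i, 0.39 ± 0.11, missed the threshold (adjusted p = 0.0509) and passed it in 5 alternatives, among them the replicate block and the omission of either CH+LIF culture. The other sensors of the family, Ifih1 and Dhx58, were at most 0.0523 and 1.22 FPKM.

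In the ISG15 system, Isg15, the ubiquitin-like modifier that strong interferon responses raise, was listed at 0 in 7 cultures and at 0.181 FPKM in culture 2 of LIF+PD. Usp18, which removes ISG15, was above 0 in a single culture, at 0.0569 FPKM. Trim25, a ligase that activates RIG-I, was at 30.9 and 31.5 FPKM in 2i+LIF, 26.2 and 28.3 in 2i, 40.1 and 38.9 in LIF+PD, and 46.9 and 42.2 in CH+LIF. Its values did not overlap between media, and both LIF media lacking an inhibitor were higher than 2i+LIF. The difference was 0.50 ± 0.09 in CH+LIF (adjusted p = 0.00779) and 0.33 ± 0.09 in LIF+PD (adjusted p = 0.0327). The call in LIF+PD was lost without any of the 4 cultures compared and in 2 further alternatives, with adjusted p up to 0.138, and the call in CH+LIF was lost without its culture 1 (adjusted p = 0.0512).

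By the highest culture of each gene, the antiviral effectors fell into genes far above 100 FPKM, genes above 10 FPKM and genes near 0. The 3 Ifitm genes were the highest of the 39 members in every culture except culture 1 of CH+LIF, where Psme2 at 137 FPKM exceeded Ifitm3 at 130 FPKM. For each of the 3, both LIF+PD cultures lay above and both CH+LIF cultures below those of the other media. Ifitm1 was at 598 and 563 FPKM in 2i+LIF, 516 and 525 in 2i, 802 and 944 in LIF+PD, and 165 and 147 in CH+LIF. It was higher in LIF+PD than in 2i+LIF by 0.58 ± 0.11 (adjusted p = 0.00827) and lower in CH+LIF by -1.89 ± 0.11 (adjusted p = 0.000233), a 3.73-fold difference in mean FPKM. The call in LIF+PD was lost without culture 2 of 2i+LIF or of LIF+PD, with adjusted p up to 0.0517. The 2i values were below those of 2i+LIF without passing the test (-0.16 ± 0.11, adjusted p = 0.35).

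Ifitm2 was at 822 and 760 FPKM in 2i+LIF, 900 and 739 in 2i, 1142 and 1169 in LIF+PD, and 541 and 562 in CH+LIF. The 2 media 2i and 2i+LIF overlapped, and the other media stood apart on either side. Its difference from 2i+LIF was 0.55 ± 0.11 in LIF+PD (adjusted p = 0.0125) and -0.52 ± 0.11 in CH+LIF (adjusted p = 0.0158). The call in LIF+PD was lost without 2i+LIF culture 2 or either LIF+PD culture, with adjusted p up to 0.0702, and the call in CH+LIF without 2i+LIF culture 1 or either CH+LIF culture, with adjusted p up to 0.0846.

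Ifitm3 was at 242 and 262 FPKM in 2i+LIF, 191 and 205 in 2i, 471 and 570 in LIF+PD, and 130 and 162 in CH+LIF. All 4 media were separate for this gene. It was higher in LIF+PD by 1.04 ± 0.13 (adjusted p = 0.00214) and lower in CH+LIF by -0.79 ± 0.13 (adjusted p = 0.00685). Between CH+LIF and LIF+PD the 3 genes differed by -2.48 ± 0.11, -1.07 ± 0.11 and -1.83 ± 0.13 in the order Ifitm1, Ifitm2 and Ifitm3, and these calls held in all 18 alternatives. The 3 genes are similar in sequence and only uniquely mapped reads were kept, so the division of reads among them is uncertain. The FPKM of Ifitm2 and Ifitm3 also exceeded the upper bound given beside them in all 8 cultures, by a factor of 1.24 to 1.44, so their absolute levels are less firm than the differences between media.

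Bst2 ran the other way to the Ifitm genes in CH+LIF. It was at 9.52 and 5.59 FPKM in 2i+LIF, 3.23 and 7.17 in 2i, 16.9 and 18.2 in LIF+PD, and 48.3 and 45.6 in CH+LIF. The 2i and 2i+LIF cultures overlapped, and those of LIF+PD and CH+LIF lay above them and apart from each other. Bst2 was higher in CH+LIF than in 2i+LIF by 2.52 ± 0.32 (adjusted p = 0.00261), or 6.21-fold in mean FPKM, in all 18 alternatives. The difference of 1.16 ± 0.32 in LIF+PD (adjusted p = 0.0385) was lost in 8 alternatives, with adjusted p up to 0.180, among them the fit with the replicate number as a block and the omission of 2i+LIF culture 2, of either LIF+PD culture or of either CH+LIF culture.

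Xaf1, which encodes an interferon-inducible promoter of cell death, had the largest change of any member against 2i+LIF, in 2i. It was at 43.1 and 58.9 FPKM in 2i+LIF, 3.81 and 1.79 in 2i, 21.9 and 19.7 in LIF+PD, and 23.4 and 28.7 in CH+LIF. The 2i cultures were far below all others and the 2i+LIF cultures above all others. The difference from 2i+LIF was -3.81 ± 0.27 in 2i (adjusted p = 0.000248), or 18.2-fold in mean FPKM, and it held in all 18 alternatives. In LIF+PD it was -1.24 ± 0.27 (adjusted p = 0.0157), and this call was lost without 2i+LIF culture 2 or either LIF+PD culture, with adjusted p up to 0.0875. In CH+LIF it was -0.93 ± 0.27 (adjusted p = 0.0413), a call that was lost in 12 of 18 alternatives, with adjusted p up to 0.191, among them the replicate block and the omission of any culture of 2i+LIF, LIF+PD or CH+LIF.

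**Figure D3:**
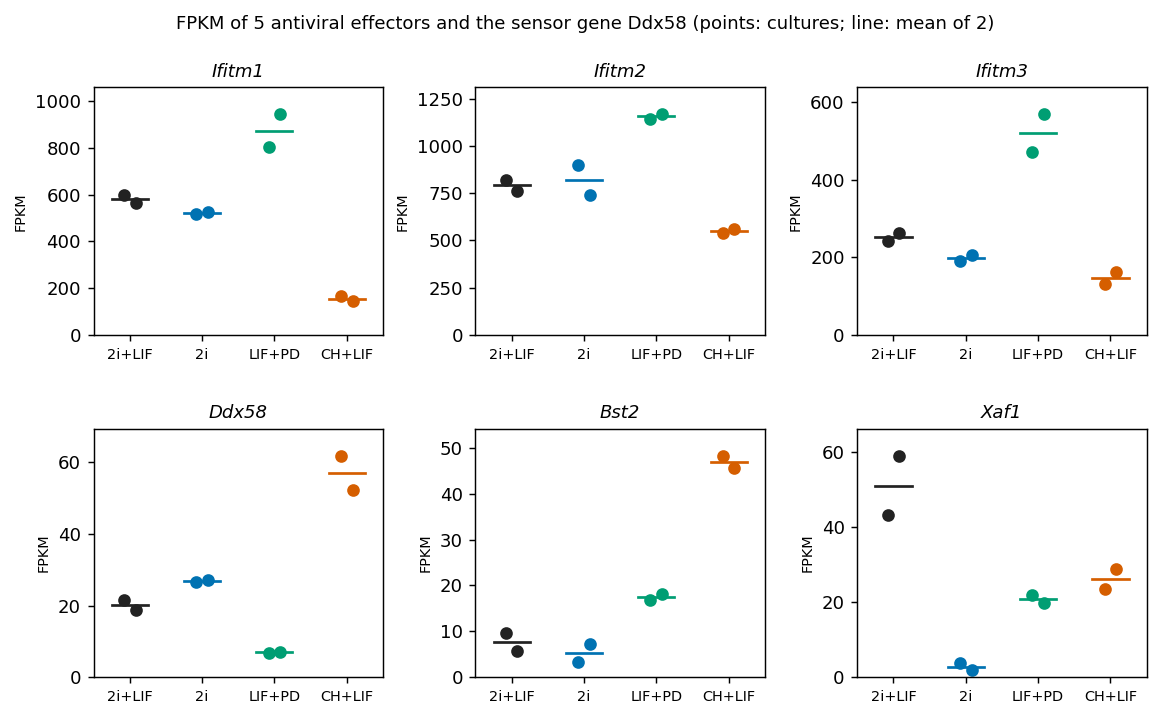
FPKM of Ifitm1, Ifitm2, Ifitm3, Ddx58, Bst2 and Xaf1 in the 4 media, with a point for each culture and a line for the mean of 2, on linear axes that start at 0. The Ifitm genes peak in LIF+PD, Ddx58 and Bst2 in CH+LIF, where both cultures exceed 45 FPKM, and Xaf1 in 2i+LIF, with 2i below 4 FPKM.

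Oas1a, a synthetase that activates an antiviral RNase, was at 17.5 and 16.6 FPKM in 2i+LIF, 9.26 and 8.39 in 2i, 10.02 and 8.29 in LIF+PD, and 9.38 and 7.17 in CH+LIF. The 3 other media overlapped and all lay below 2i+LIF, by -0.88 ± 0.15 in 2i (adjusted p = 0.00817), -0.83 ± 0.15 in LIF+PD (adjusted p = 0.00799) and -0.97 ± 0.15 in CH+LIF (adjusted p = 0.00506). The first 2 calls were lost without 2i+LIF culture 1, with adjusted p of 0.0536 and 0.0509. Oas1a has close copies in its gene cluster, so its reads may be divided. Isg20, a nuclease for viral RNA, was at 0.178 to 1.37 FPKM and was not called in any comparison. The remaining effectors were untested: Parp14 was at most 0.750 FPKM, Rsad2 at most 0.803, and Ifit1, Ifit2, Ifit3, Oasl2, Gbp2 and Gbp3 at most 0.364. Rsad2, whose product viperin blocks many viruses, was at 0.0498 and 0.0455 FPKM in 2i+LIF, 0.803 and 0.566 in 2i, 0.0746 and 0.453 in LIF+PD, and 0.0855 and 0.329 in CH+LIF. These values were too low to be tested.

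The class I chain genes split between the light chain, which was lower in every medium than in 2i+LIF, and the classical heavy chain genes H2-K1 and H2-D1, which were higher in LIF+PD and CH+LIF. The call of H2-D1 in CH+LIF was lost in 8 of 18 alternatives, and the non-classical H2-T23 was not called. B2m, the light chain, was at 52.9 and 54.3 FPKM in 2i+LIF, 15.7 and 13.6 in 2i, 21.3 and 22.5 in LIF+PD, and 21.7 and 24.7 in CH+LIF. The 2i cultures were lowest, LIF+PD and CH+LIF overlapped, and 2i+LIF stood above all of them. The differences from 2i+LIF were -1.80 ± 0.11 in 2i (adjusted p = 0.000135), -1.25 ± 0.11 in LIF+PD (adjusted p = 0.000415) and -1.18 ± 0.11 in CH+LIF (adjusted p = 0.000866), and these held in all 18 alternatives. The span of B2m overlaps Patl2, which reached 14.3 FPKM, and the part of shared reads was not tested.

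H2-K1, a classical heavy chain, was at 1.09 and 1.45 FPKM in 2i+LIF, 1.92 and 2.21 in 2i, 4.56 and 3.64 in LIF+PD, and 4.35 and 4.16 in CH+LIF. Media with a missing inhibitor were highest and overlapped each other. The difference from 2i+LIF was 1.17 ± 0.16 in LIF+PD (adjusted p = 0.00273) and 1.22 ± 0.16 in CH+LIF (adjusted p = 0.00291), and both calls held in all 18 alternatives. In 2i it was 0.44 ± 0.16 and missed the threshold (adjusted p = 0.104).

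H2-D1, the other classical heavy chain, was at 2.68 and 2.62 FPKM in 2i+LIF, 2.07 and 1.80 in 2i, 5.33 and 5.56 in LIF+PD, and 4.39 and 3.94 in CH+LIF. The 4 media did not overlap. It was higher by 0.82 ± 0.13 in LIF+PD (adjusted p = 0.00482) and by 0.50 ± 0.13 in CH+LIF (adjusted p = 0.0307), where the alternatives that lost the call, with adjusted p up to 0.154, included the omission of any culture of 2i+LIF, LIF+PD or CH+LIF. H2-T23, a non-classical heavy chain, was at 0.257 to 1.88 FPKM. The heavy chain genes were below 6 FPKM in every culture where B2m was above 13 FPKM, and class I genes share long stretches of sequence, which limits unique mapping.

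Of the genes that load the heavy chains with peptide, Tapbp was above 16 FPKM in every culture while both transporter subunits were low. Tapbp, which encodes tapasin, was at 31.7 and 33.8 FPKM in 2i+LIF, 22.2 and 17.7 in 2i, 16.5 and 21.1 in LIF+PD, and 21.1 and 25.8 in CH+LIF. All cultures of the other media were below 2i+LIF, and the difference was -0.70 ± 0.16 in 2i (adjusted p = 0.0265), -0.78 ± 0.16 in LIF+PD (adjusted p = 0.0143) and -0.47 ± 0.16 in CH+LIF, which missed the threshold (adjusted p = 0.0759). The call in 2i was lost in 4 alternatives, without either 2i+LIF culture or 2i culture 2 and without the filter, with adjusted p up to 0.123. The call in LIF+PD was lost without either 2i+LIF culture or LIF+PD culture 1, with adjusted p up to 0.0787. The span of Tapbp overlaps Zbtb22, which reached 18.2 FPKM, and the part of shared reads was not tested.

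Tap1, a subunit of the peptide transporter, was at 0.645 and 0.737 FPKM in 2i+LIF, 1.29 and 2.10 in 2i, 2.81 and 2.68 in LIF+PD, and 0.407 and 0.758 in CH+LIF. It passed the filter through 2i and LIF+PD alone, the media where it was high, so the test against 2i+LIF is favoured by the filter. The difference in LIF+PD was 1.15 ± 0.20 (adjusted p = 0.00765), and without the filter the adjusted p was 0.0166. Tap2, the other subunit, was at most 0.156 FPKM.

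Of the immunoproteasome subunits, which replace the standard catalytic subunits in interferon-treated cells, Psmb8 was listed at 0 in all cultures, Psmb9 was at most 0.804 FPKM and Psmb10 was measurable. Psmb10 was at 5.38 and 4.29 FPKM in 2i+LIF, 2.19 and 3.91 in 2i, 4.53 and 5.30 in LIF+PD, and 12.1 and 12.9 in CH+LIF. CH+LIF stood above the other media, whose values overlapped in part, by 1.22 ± 0.22 against 2i+LIF (adjusted p = 0.00799), a call lost without 2i+LIF culture 2 (adjusted p = 0.0515). The standard counterparts Psmb5, Psmb6 and Psmb7 were at 118 to 358 FPKM and none of the 3 was called by limma in any of the 6 comparisons, nor passed an unadjusted p of 0.05.

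The PA28 subunits, which open the proteasome, were abundant in all media. Psme1 was at 103 to 137 FPKM and was not called. Psme2 was at 133 and 137 FPKM in 2i+LIF, 87.97 and 109 in 2i, 98.0 and 89.3 in LIF+PD, and 137 and 112 in CH+LIF. Only its difference in LIF+PD passed the test among those with 2i+LIF, at -0.53 ± 0.14 (adjusted p = 0.0289), and this call was lost without any of the 4 cultures compared and in 2 further alternatives, with adjusted p up to 0.133. In 2i the difference of Psme2 from 2i+LIF was not called, but 5 of 18 alternatives called it lower, so the change is not particular to LIF+PD. Psme1, Psme2 and Irf9 lie together within chr14:55578123-55610030, and Psmb9, Tap1, Psmb8 and Tap2 within chr17:34181988-34216321 (mm10).

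**Figure D4:**
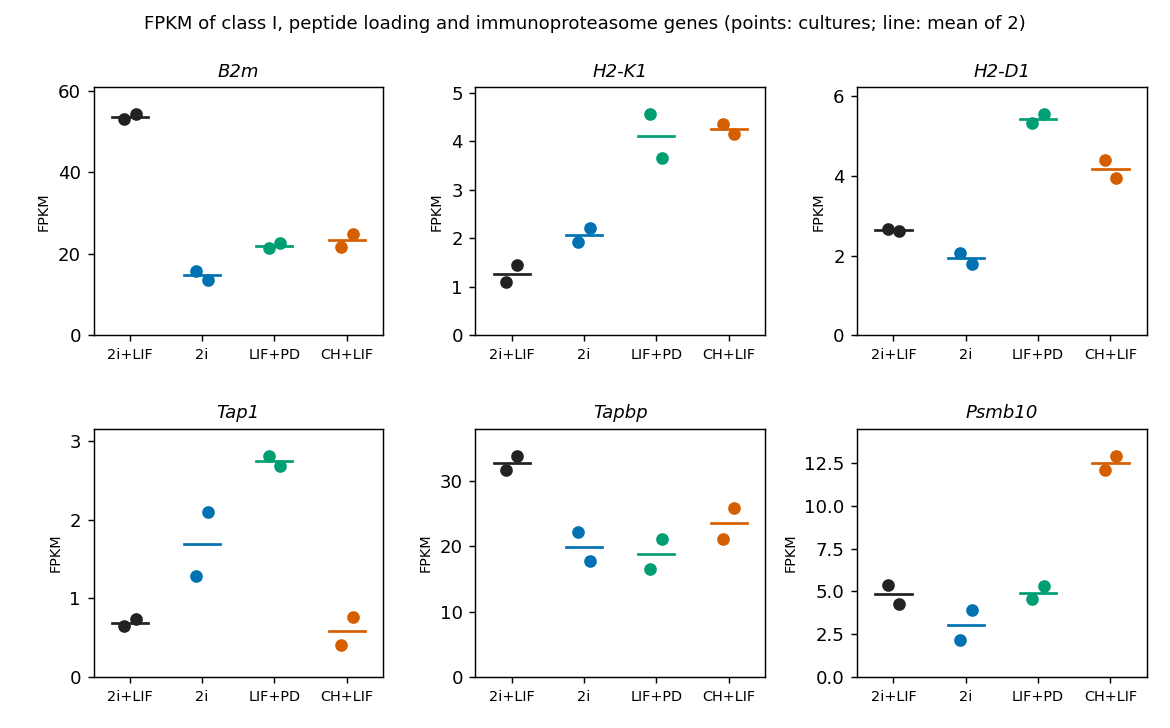
FPKM of B2m, H2-K1, H2-D1, Tap1, Tapbp and Psmb10 in the 4 media, with a point for each culture and a line for the mean of 2, on linear axes that start at 0. B2m and Tapbp are highest in 2i+LIF, H2-K1 and H2-D1 are highest in LIF+PD and CH+LIF, Tap1 in LIF+PD, and Psmb10 in CH+LIF.

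The comparisons among the media that each lack 1 component gave the members' remaining differences. Against 2i, LIF+PD had 9 members higher and 1 lower, where 14.0% and 11.1% of all genes were called. The lower one was Ddx58, by -1.82 ± 0.11 (adjusted p = 0.000105), and the higher ones were Trim25, the 3 Ifitm genes, Bst2, Xaf1, B2m, H2-K1 and H2-D1. Against 2i, CH+LIF had 9 higher and 3 lower, where 10.6% and 13.3% of all genes were called. The lower ones were Ifitm1, Ifitm2 and Tap1, the last favoured by the filter, and the higher ones were Irf9, Ddx58, Trim25, Bst2, Xaf1, B2m, H2-K1, H2-D1 and Psmb10. Of the 10 calls in LIF+PD 6 held in every alternative, and of the 12 in CH+LIF 8 did. Those lost in 1 to 3 omissions of a culture of the 2 media compared were Ifitm2, H2-K1, Bst2 and B2m in LIF+PD and Irf9, Ifitm2 and H2-K1 in CH+LIF, while Tap1 lost its call in 10 of 17 alternatives.

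Xaf1 was 7.43-fold and 9.30-fold higher in mean FPKM in LIF+PD and CH+LIF than in 2i, and B2m was 1.49-fold and 1.58-fold higher, by 0.55 ± 0.11 (adjusted p = 0.00948) and 0.63 ± 0.11 (adjusted p = 0.00682). The B2m call in LIF+PD was lost without LIF+PD culture 2 (adjusted p = 0.0587).

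Between CH+LIF and LIF+PD, which share LIF and differ in the inhibitor, 4 members were higher and 4 lower in CH+LIF, against 12.6% and 17.8% of all genes, shares close to those of the members. The higher ones were Irf9, Ddx58, Bst2 and Psmb10. Irf9 lost the call in 4 alternatives, with adjusted p up to 0.0854, and Bst2 in 4, without any of the 4 cultures compared, with adjusted p up to 0.0849. The lower ones were the 3 Ifitm genes and Tap1. Tap1 differed by -1.25 ± 0.20 (adjusted p = 0.00432), but it was below 1 FPKM in both CH+LIF cultures and passed the filter through the media where it was high, and it was also called without the filter. The plot of the shares called sets these counts beside the background of each comparison.

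**Figure D5:**
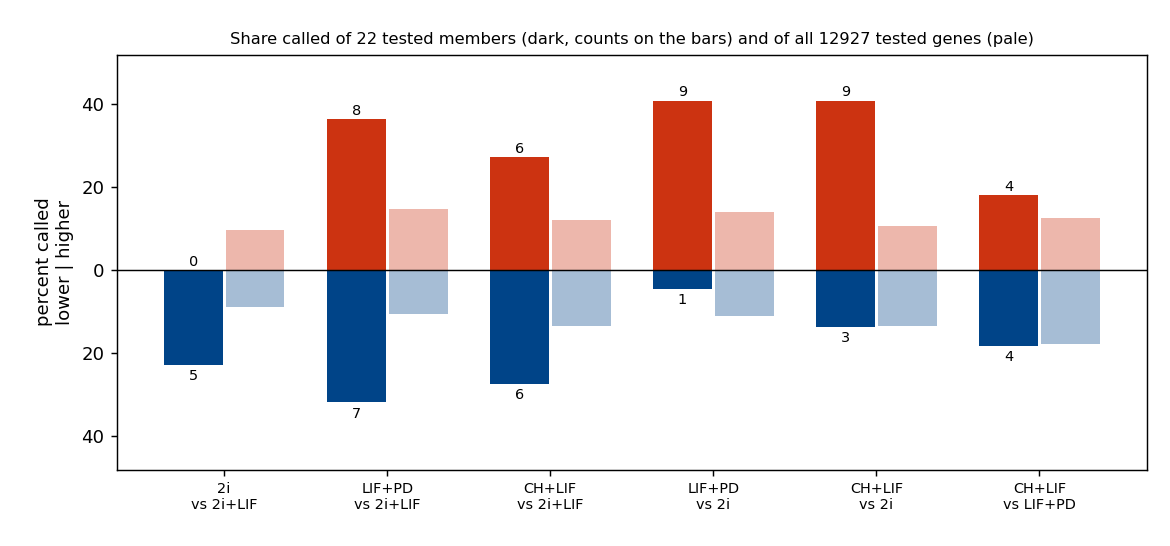
Percent of the 22 tested members (dark bars, with counts) and of all 12927 tested genes (pale bars) called higher, above the line, or lower, below it, in each of the 6 comparisons. The member bars exceed the gene bars in both directions in LIF+PD and CH+LIF against 2i+LIF, and in CH+LIF against LIF+PD they are close, with 4 members each way.

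The wider pathway was followed in 88 further genes, of which 54 were tested. Of 9 interferon ligands, 8 were listed at 0 in all cultures and Ifnl2 was at 0.182 FPKM in a single culture of 2i+LIF, so none was tested. Both chains of the type I receptor were measured. Ifnar1 was at 12.3 and 14.1 FPKM in 2i+LIF, 15.2 and 15.5 in 2i, 10.8 and 13.2 in LIF+PD, and 13.6 and 13.4 in CH+LIF, and it was not called. Ifnar2 was at 12.5 and 13.7 FPKM in 2i+LIF, 7.495 and 5.92 in 2i, 11.9 and 18.5 in LIF+PD, and 10.6 and 9.82 in CH+LIF. The 2i cultures were below all others, by -0.88 ± 0.20 against 2i+LIF (adjusted p = 0.0259).

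Against 2i+LIF the 54 genes counted 4 higher (7.41%) and 15 lower (27.8%) in 2i, beside 9.77% and 8.86% of all genes. In LIF+PD 3 were higher (5.56%) and 9 lower (16.7%), beside 14.8% and 10.4%, and in CH+LIF 4 were higher (7.41%) and 10 lower (18.5%), beside 12.2% and 13.3%. The share lower in 2i stood furthest from the background, above it. The other shares lay nearer to it, and those higher in 2i and lower in CH+LIF were close to it. Of the 19 tested in the list of other interferon-stimulated genes, 2 were higher and 9 lower in 2i (10.5% and 47.4%), 3 and 5 in LIF+PD (15.8% and 26.3%), and 2 and 6 in CH+LIF (10.5% and 31.6%). The shares higher were close to the background, and those lower were above it. Passing the filter in only some media favours a difference, and Sp100 and Il10rb reached 1 FPKM in 2i+LIF alone. Parp9, Dtx3l, Trim21 and Tmem173 were above 1 FPKM in both 2i+LIF cultures and below 1 FPKM in both 2i cultures. Zbp1 was listed at 0 in both 2i cultures and passed through other media. No gene of the lists was below 1 FPKM in both 2i+LIF cultures and above it in both 2i cultures, so the filter favours the shares lower in 2i. The lists were also chosen with earlier results of these data known, so the shares are not an independent test.

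The called pathway genes with the largest changes are given next. Calls of pathway genes, that of Ifnar2 included, were not checked under the alternatives used for the members. Sp100, a nuclear body protein gene, was at 4.33 and 3.01 FPKM in 2i+LIF, listed at 0 in both 2i cultures, at 0.428 and 0.524 in LIF+PD, and at 0.0769 and 0 in CH+LIF. It was called lower in all 3 media (adjusted p = 0.000618, 0.00144 and 0.000870). Sp100 passed the filter through 2i+LIF alone, the medium where it was high, so these tests are favoured by the filter. Ube2l6, the conjugating enzyme for ISG15, was at 6.07 and 9.68 FPKM in 2i+LIF and between 0.848 and 2.34 in the other media, with differences of -1.56 ± 0.31, -1.71 ± 0.31 and -1.94 ± 0.31 in 2i, LIF+PD and CH+LIF. Oas1g, a neighbour of Oas1a, was lower in 2i by -1.45 ± 0.16 (adjusted p = 0.00143). Ly6e, a surface protein gene, was lower in CH+LIF by -1.24 ± 0.11 (adjusted p = 0.000800). Ifngr2, a chain of the interferon gamma receptor, was at 5.55 and 6.59 FPKM in 2i+LIF, 14.6 and 12.8 in 2i, 2.86 and 2.36 in LIF+PD, and 2.15 and 4.48 in CH+LIF. It was higher in 2i by 1.06 ± 0.25 (adjusted p = 0.0295) and lower in LIF+PD by -0.97 ± 0.25 (adjusted p = 0.0314).

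None of the 7 tested negative regulators was called by limma in a comparison with 2i+LIF, and at an unadjusted p below 0.05 the counts were 0 in 2i, 1 in LIF+PD and 1 in CH+LIF. Of the 7 tested genes for other class I chains, loading and class I transactivation, H2-Q4 alone was called, higher in CH+LIF. Nlrc5, the transactivator of class I genes, was at most 0.130 FPKM.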

How the data were processed

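RNA of 8 cultures was sequenced as single-end reads, which the authors aligned with TopHat2 to mm10 with Ensembl 75 annotation, keeping unique alignments. The deposited values are FPKM for each gene in each culture, bounded on either side, and the submitters' processing notes list Cufflinks and Cuffdiff beside TopHat2. The methods state rRNA depletion where the sample records state polyA RNA, and the strand setting behind the FPKM values is not given in the sources used here. The study's own counts and tests were not used. Coordinates are those deposited.

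Rows with the same identifier (22) were summed, leaving 38991 genes. Values were taken as log2(FPKM + 1) without further scaling. The 12927 genes that reached 1 FPKM in 2 or more cultures entered a single limma 3.58.1 fit (R 4.3.3) of 4 groups with a mean-variance trend, which was tested on simulated data, and 6 contrasts were adjusted by Benjamini-Hochberg over all genes. With 2 cultures in each group, an SD has 1 degree of freedom. Replicates correlated at r of 0.974 to 0.983. Reads per culture are unknown, so no counting intervals are given.

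The members and gene lists were chosen with earlier results of these data known. Values by culture are given for every member called in a comparison with 2i+LIF. They are also given for Stat2, Irf9, Isg15, B2m, H2-K1, H2-D1, Tap1 and Psmb8. Rsad2 is given by culture outside this rule, and the others have ranges. Of the pathway lists, the called genes with the largest changes are named, up to 3 in each comparison with 2i+LIF, with Ifnar1 and Ifnar2, and Psmb5 to Psmb7, H2-Q4 and Nlrc5 were added after their values were seen. A gene of the pathway lists is not reported here and is in none of their counts. Promoters are from RefSeq, and motifs were searched on both strands with Python 3.11.15. Alternatives covered the pseudocount (0.1 and 5), the filter, 3 other scalings, the trend, a replicate block, the groups in the fit and each culture left out.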

Additional observations from a re-analysis of the deposited data

How the results depend on the processing

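No member call changed direction under any of the 18 alternatives. Of the 32 member calls against 2i+LIF, 15 held in all of them, and of the 62 calls in all 6 comparisons, 35 did. Without the filter on low values, 3 members were called in 2i against 2i+LIF, where 5 were called with it. With a culture left out, the members called against 2i+LIF changed in number in 2i, LIF+PD and CH+LIF alike. Fewer were called in each without either 2i+LIF culture. In LIF+PD and CH+LIF, fewer were also called without either of their own cultures.

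The genes called with a culture left out numbered 1152 to 2150 in 2i, 1661 to 3372 in LIF+PD and 1506 to 3363 in CH+LIF against 2i+LIF, 1873 to 2987 in LIF+PD and 1478 to 2726 in CH+LIF against 2i, and 2262 to 4026 in CH+LIF against LIF+PD, from 2408, 3263, 3286, 3242, 3089 and 3928 with all cultures. A group left with 1 culture is assumed to vary like the others.

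Scaling to equal FPKM sums moved the median of all genes by over 0.1 in 3 comparisons, LIF+PD and CH+LIF against 2i+LIF and CH+LIF against 2i, to 0.15, 0.18 and 0.09. It gave 2601 genes higher and 876 lower in the first, 2898 and 1017 in the second, and 2051 and 1156 in the third. The members called under it were 8 higher and 5 lower in LIF+PD, and 6 and 5 in CH+LIF, against 2i+LIF.

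The replicate numbers share only a label. Deviations of same-numbered cultures correlated at -0.0283 to 0.0925, and no pairing is stated. A replicate block gave 7, 14 and 11 members called against 2i+LIF in 2i, LIF+PD and CH+LIF, 11 and 13 in LIF+PD and CH+LIF against 2i, and 9 in CH+LIF against LIF+PD. The genes called under the block were 2547, 3470, 3519, 3467, 3338 and 4105.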

Other observations

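For 6 of the 37 members with a value above 0, the FPKM lay above the upper bound given beside it. This was so in all 8 cultures for Ifitm2, Ifitm3 and Psme1, in 6 for B2m, in 3 for Bst2 and in 2 for Psme2. The bounds entered no test.

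Xaf1 and B2m had the same order of media by mean FPKM, with 2i+LIF highest, then CH+LIF, LIF+PD and 2i. The mean FPKM of Xaf1 was 51.0 ± 11.2, 26.1 ± 3.80, 20.8 ± 1.55 and 2.80 ± 1.42 (SD, n = 2) in that order, and that of B2m was 53.6 ± 0.970, 23.2 ± 2.16, 21.9 ± 0.886 and 14.7 ± 1.46. The neighbours LIF+PD and CH+LIF in this order did not differ beyond the test for either gene, with differences of 0.30 ± 0.27 for Xaf1 (adjusted p from limma = 0.43) and 0.08 ± 0.11 for B2m (adjusted p from limma = 0.61). Likeness of order over 4 media is a description, and the 2 genes were chosen for it after their values were seen.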
